A study of Mus musculus with 28 samples.

Results

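The genes described here are 147 long non-coding RNAs (lncRNAs) that were well expressed in frontal cortex. All mice were C57Bl/6 males. They are the genes typed lncRNA in both deposited count tables whose mean level was at least 10 CPM in each of the 2 control groups, where CPM is a gene's counts per M counts of its library (M, mega). A set of 9 named transcripts was left out by the rule (Malat1, Neat1, Miat, Meg3, Rian, Mirg, Snhg11, Snhg14 and Kcnq1ot1); 8 of them are typed lncRNA in both tables, and Snhg11 is typed protein-coding. The 147 were drawn from 968 lncRNAs and 14888 genes present in both tables, and the remaining 813 lncRNAs were below 10 CPM in at least 1 control group. The members were thus chosen by their levels in the control libraries, which are given as a description. The rule did not use changes under treatment, though the members and lists were chosen with earlier results of these data known.

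The libraries came from 28 mice in 2 cohorts. The group CSS held 8 mice of 21 weeks under chronic social stress, which meant 7 weeks of housing alone with social confrontations 2 times a day over the final 20 days. The group CSS_control held 8 control mice of the same age. The group T2D held 6 mice of 30 or 31 weeks in which type 2 diabetes had been induced with 75 mg/kg streptozotocin and 21 weeks on a high-fat diet that supplied 43.2% of its kcal as fat. The group T2D_control held 6 control mice of 30 or 31 weeks. Total counts were between 15.2 and 21.9 M in CSS libraries and between 14.3 and 37.5 M in CSS_control libraries. They were between 14.3 and 22.7 M in T2D libraries and between 12.1 and 21.6 M in T2D_control libraries.

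LncRNAs are transcripts that are not translated into a known protein. Some act as RNA, by holding proteins or small RNAs; some are precursors from which miRNAs (short RNAs that pair with mRNAs through their seed) or snoRNAs (guides for the modification of ribosomal RNA) are cut; and for many predicted transcripts no role is known. In brain, lncRNAs are often restricted to particular cell types, and many start next to a protein-coding gene on the opposite strand.

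By position in GENCODE M21 (GRCm38, equivalent to mm10), 25 of the 147 enclosed a miRNA gene on their own strand, and 7 enclosed a snoRNA or scaRNA gene. Of the 48 miRNA genes inside members, 38 had a RefSeq entry under the same symbol. A selection of mature miRNAs is shown because several members carry copies of the same seed, so that a family is spread over separate host transcripts. The sequences are from RefSeq on GRCm38.p6, written 5′ to 3′, with the seed (bases 2 to 8) in capitals. The first 3 are hosted by 6720427I07Rik, at chr13:48538239-48538260, chr13:48537889-48537910 and chr13:48536078-48536099 on the minus strand, and let-7c is hosted by Mir99ahg at chr16:77599672-77599693 on the plus strand.
let-7a-5p: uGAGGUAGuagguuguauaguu
let-7f-5p: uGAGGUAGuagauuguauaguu
let-7d-5p: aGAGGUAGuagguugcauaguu
let-7c-5p: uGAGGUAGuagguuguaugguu
These 4 share 1 seed. The next pair shares another, and their hosts are Mir100hg (chr9:41531437-41531458, plus strand) and Mir99ahg (chr16:77598940-77598961, plus strand). Both hosts also carry a copy of miR-125b, and Mir100hg carries a further let-7a gene (Mirlet7a-2), so that the members held 3 let-7 hosts.
miR-100-5p: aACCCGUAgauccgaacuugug
miR-99a-5p: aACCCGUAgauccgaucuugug
miR-125b-5p: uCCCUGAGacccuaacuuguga
The pair encoded inside A330023F24Rik (chr1:195037091-195037113 and chr1:195037600-195037621, plus strand) and the pair inside Dleu2 (chr14:61632075-61632096 and chr14:61631936-61631957, minus strand) each share a seed too.
miR-29b-3p: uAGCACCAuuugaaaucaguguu
miR-29c-3p: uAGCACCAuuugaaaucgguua
miR-15a-5p: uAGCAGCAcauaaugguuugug
miR-16-5p: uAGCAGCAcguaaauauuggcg
The neuronal and neural progenitor miRNA miR-9 is encoded at 3 loci whose hosts were all members, namely Gm3764 (chr3:88215613-88215635, plus strand), C130071C03Rik (chr13:83738821-83738843, plus strand) and Mir9-3hg (chr7:79505279-79505301, plus strand).
miR-9-5p: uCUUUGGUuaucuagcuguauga

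Other members hold sites for small RNAs or proteins. Oip5os1, known as Cyrano, directs the decay of miR-7 in mouse brain through 1 extensively paired site, and Cdr1os is the transcript from which the circular RNA Cdr1as, rich in miR-7 sites, is made. The seed match of miR-7 (GTCTTCC, searched on the sense strand only) occurred 125 times in the longest M21 transcript of Cdr1os, which is 19658 bases long, or 6.36 times per kb. It occurred 2 times in that of Oip5os1, which is 8300 bases long, and at least once in 33 of the 147 longest transcripts (22.4%). The best paired site of each follows the miRNA, with the seed and its match in capitals. The Oip5os1 site (chr2:119602137-119602161, plus strand, GRCm38) paired over a further run of 13 bases beyond the seed match, and that of Cdr1os (chrX:61183663-61183687, plus strand) over a further run of 7 bases.
miR-7a-5p: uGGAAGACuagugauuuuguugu
Oip5os1: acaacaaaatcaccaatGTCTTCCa
Cdr1os: tcttccacaaaattcagGTCTTCCa
The motif bound by Pumilio proteins (TGTANATA, sense strand) occurred 11 times in 2900097C17Rik, the mouse Norad, which in human cells holds Pumilio proteins away from other mRNAs. That was the highest count of any member, ahead of 8 in Cdr1os, and 55 of the 147 transcripts (37.4%) had at least 1.

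The members covered a wide range of levels. Averaged over the 2 control groups, the median member had 24.3 CPM and the range was 10.4 to 3147 CPM. The 3 highest members were at 2031 to 3147 CPM, 17 members were at 100 CPM or more, and 62 were under 20 CPM. The 10 highest were Gm26917, 2900097C17Rik, Bc1, Oip5os1, Peg13, B230334C09Rik, Cdr1os, Gm42418, Tug1 and A330023F24Rik. Just inside the threshold, with the smaller control mean given, were AW047730 (10.03 CPM), Gm14827 (10.26 CPM) and D130017N08Rik (10.26 CPM). Just outside were 2610035D17Rik (9.862 CPM), Gm10010 (9.850 CPM) and Gm50331 (9.811 CPM).

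Between genes, levels were compared per kb of the longest annotated transcript. On this scale Bc1, a short neuronal RNA that represses translation in dendrites, was highest at 12091 CPM per kb over the controls. Its longest annotated transcript has 168 bases, against a median of 3362 bases over the members, so this value rests on a short length. How fully these libraries capture such short transcripts was not tested. Gm26917 followed at 945 CPM per kb, 2900097C17Rik at 431 CPM per kb, and Rmrp, the RNA part of an endonuclease that processes ribosomal and mitochondrial RNA, at 190 CPM per kb. These values average the 2 control groups, which differed for some members. Rmrp averaged 19.4 CPM in CSS_control and 87.1 CPM in T2D_control. Gm26917 was at 1563 to 2181 CPM in CSS_control libraries and at 2790 to 7503 CPM in T2D_control libraries. The order given here need not hold in each control group alone. Oip5os1 was at 72.3 CPM per kb and Peg13, an imprinted transcript inside Trappc9, at 50.8 CPM per kb. Cdr1os stood 7th in CPM but 55th per kb, at 10.5 CPM per kb. The median member was at 7.59 CPM per kb.

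**Figure D1:**
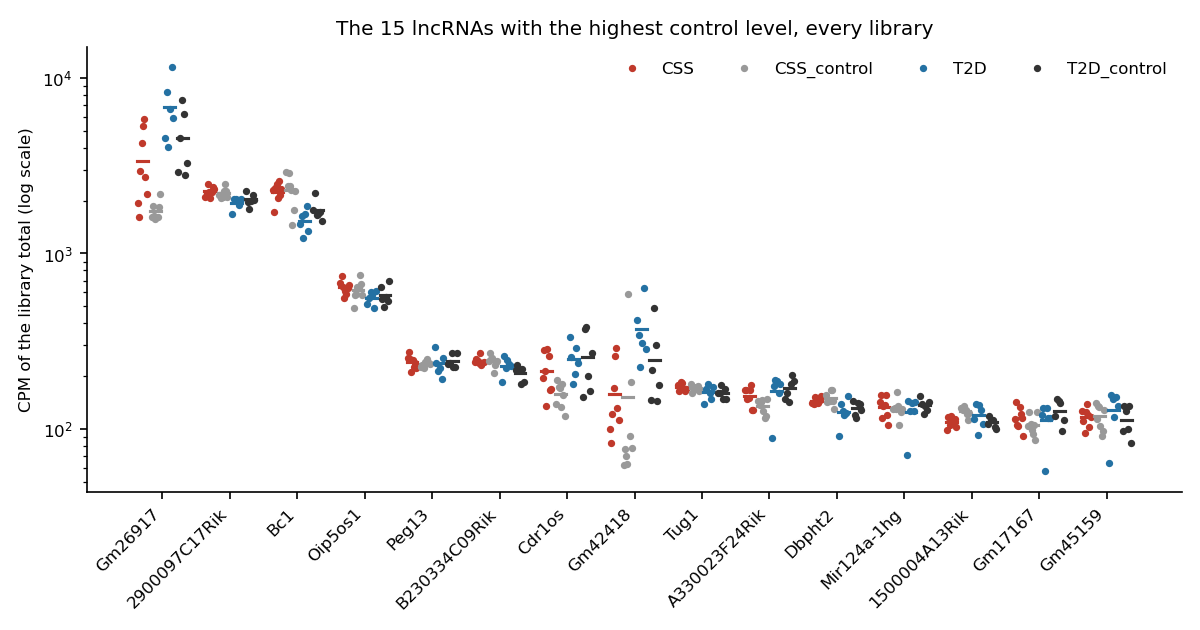
Levels of the 15 lncRNAs with the highest control level in every library, in CPM of the library total on a log axis. Each point is a library, short lines are group means, and colours mark CSS, CSS_control, T2D and T2D_control. Gm26917 spanned 1563 to 11520 CPM over all libraries, whereas Tug1 stayed between 138.7 and 184.2 CPM.

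Tug1, a broadly expressed lncRNA, was among the steadiest members. It had 165, 170 and 184.2 CPM (lowest, median, highest) in CSS libraries, against 161, 172 and 180 CPM in CSS_control libraries. In the diabetes cohort it had 139, 165 and 181 CPM in T2D libraries and 148, 160 and 177 CPM in T2D_control libraries. The groups overlapped almost wholly in both cohorts. Over all members the median coefficient of variation within a group was 13.0% in CSS, 12.1% in CSS_control, 20.4% in T2D and 12.6% in T2D_control. For protein-coding genes at 10 CPM or more it was 9.94% in CSS, 9.68% in CSS_control, 12.2% in T2D and 10.2% in T2D_control.

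One library stood apart for these genes. In T2D 1 (the first T2D mouse) the median member was at a log2 ratio of -0.33 to the mean of T2D_control, against -0.09 to 0.19 in the other 11 libraries of that cohort. It was the lowest of the 12 libraries for 74 of the 147 members, while the median protein-coding gene there was at -0.02. T2D 1 had a RIN of 9.2 and a total of 22.7 M counts, the highest of its group. Its summed marker levels lay within the range of the other 11 libraries of the cohort for 6 of 9 cell type lists. The exceptions were excitatory neurons (2176 CPM in T2D 1, against 1249 to 2109 CPM in the others), oligodendrocyte precursors (438 CPM, against 362 to 422 CPM) and meningeal fibroblasts (26.4 CPM, against 29.8 to 108 CPM). Without T2D 1 the median coefficient of variation of the members in T2D was 13.2%. Beside T2D values in the text, those without this library are given where they differ by 0.05 or more on the log2 scale or change a count.

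**Figure D2:**
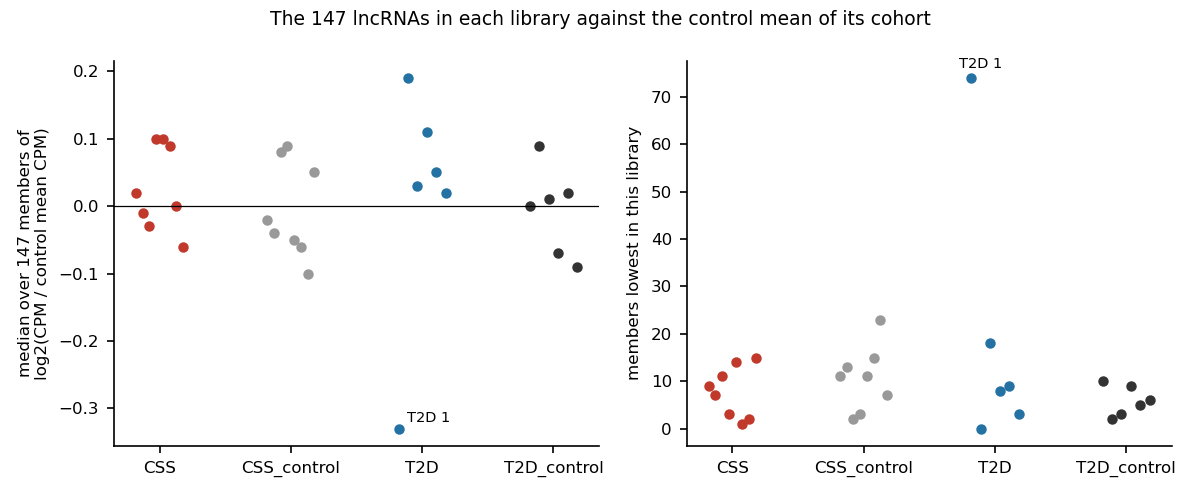
Left, the median over the 147 members of the log2 ratio of a library's CPM to the control mean of its cohort. Right, the number of members whose lowest value in the cohort fell in that library. Each point is a library, and T2D 1 sits at -0.33 on the left and at 74 members on the right.

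Under chronic social stress 2 of the 147 members rose and 3 fell at an adjusted p under 0.05 (edgeR's quasi-likelihood test, Benjamini-Hochberg adjustment over all 15097 genes of the table; this test applies to all adjusted p-values below unless another is named). These 5 were 3.401% of the members, and 4.52% of all genes tested passed (2.11% higher and 2.42% lower), so the share of members called was not above the background. Gm49015 and Gm26917 were higher, and 1500004A13Rik, 4632404H12Rik and 6720427I07Rik were lower. The changes were small apart from that of Gm26917. The median log2 fold change was 0.03 over the members and 0.01 over all genes. Positive values were found for 92 members (62.6%), against 51.3% of all genes, and an unadjusted p under 0.05 for 35 members (23.8%), against 21.5% of all genes. No member had CSS and CSS_control libraries that did not overlap, a pattern found for 0.603% of all genes.

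Gm49015 is a transcript of 2 exons on chromosome 14 (79146259 to 79151389, minus strand) that lies within the span of Vwa8 on the opposite strand. It had 51.3, 62.2 and 68.2 CPM in CSS libraries, against 33.9, 45.1 and 54.7 CPM in CSS_control libraries. All 8 CSS libraries were above the control mean, and the groups overlapped only between 51.3 and 54.7 CPM. The log2 fold change was 0.44 ± 0.09 (SE; adjusted p = 0.0134), and it passed the threshold without any 1 of the 16 libraries.

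1500004A13Rik, on chromosome 3 (88782943 to 88832547, minus strand), starts 2684 bases from Gon4l on the other strand. It had 98.1, 109 and 119 CPM in CSS libraries, against 112, 128 and 136 CPM in CSS_control libraries. All 8 CSS libraries were below the control mean, with overlap between 112 and 119 CPM. On the log2 scale the change was -0.22 ± 0.05 (SE; adjusted p = 0.0213), and this call too was kept without any 1 library.

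4632404H12Rik, also on chromosome 3 (89767511 to 89773240, minus strand), starts 376 bases from Ube2q1, which encodes a ubiquitin-conjugating enzyme. It had 20.2, 22.1 and 24.8 CPM in CSS libraries, against 24.04, 25.2 and 29.1 CPM in CSS_control libraries. Every CSS library was below the control mean, and edgeR gave a log2 fold change of -0.21 ± 0.06 (SE; adjusted p = 0.0364). The call ended without any 1 of CSS 3, 5, 6 or 7 or of CSS_control 1, 2, 7 or 8, with an adjusted p of at most 0.0695. Ube2q1 itself was at -0.14 ± 0.04 on the log2 scale (adjusted p = 0.0561).

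6720427I07Rik is the host of the let-7a, let-7f and let-7d genes shown above and lies on chromosome 13 (48532905 to 48546500, minus strand). It had 26.6, 31.4 and 35.4 CPM in CSS libraries, against 31.0, 38.2 and 39.0 CPM in CSS_control libraries. All 8 CSS libraries were below the control mean, and the ranges overlapped between 31.0 and 35.4 CPM. The log2 fold change was -0.25 ± 0.07 (SE; adjusted p = 0.0417). The call was kept only when the library left out was CSS 1, CSS 2, CSS_control 6 or CSS_control 7, and otherwise the adjusted p reached up to 0.0816. Mature miRNAs were not measured by these libraries.

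Gm26917 lies on chromosome 17 (39843013 to 39846341, plus strand) beside an entry that M21 types as ribosomal RNA. It was listed, with Gm42418, among lncRNAs that carry ribosomal RNA sequence. It had 1617, 2836 and 5815 CPM in CSS libraries, against 1563, 1625 and 2181 CPM in CSS_control libraries. Of the CSS libraries, CSS 4, 5 and 6 were at 4284, 5318 and 5815 CPM, and the other 5 lay between 1617 and 2936 CPM. The highest control was exceeded by 6 of the 8 CSS libraries, and the other 2 lay within the control range. The log2 fold change was 0.94 ± 0.24 (SE; adjusted p = 0.0384), and it no longer passed without any 1 of CSS 4, 5 or 6 or of CSS_control 1 to 7 (adjusted p of at most 0.0756). In the diabetes cohort it had 4069, 6290 and 11520 CPM in T2D libraries, against 2790, 3920 and 7503 CPM in T2D_control libraries. There the log2 fold change was 0.58 ± 0.30 (adjusted p = 0.825), or 0.67 ± 0.32 without T2D 1. RIN, the RNA integrity number, was 8.7 to 9.4 in T2D (median 9.00) and 8.5 to 9.8 in T2D_control (median 9.45). It was 9.0 to 10.0 in CSS (median 9.60) and 9.3 to 10.0 in CSS_control (median 9.50). The T2D library of highest Gm26917 level had the lowest RIN of its group (8.7), as did the T2D_control library of highest level (8.5), and the T2D_control libraries with a RIN of 9.7 or 9.8 were between 2790 and 3261 CPM. In the stress cohort CSS 4, 5 and 6, of highest level, had RINs of 10.0, 9.0 and 9.6, which included the highest and the lowest of their group, and the CSS_control library of highest level had a RIN of 10.0, the highest of that group. With RIN as a covariate the change in T2D was 0.18 ± 0.16, where edgeR's unadjusted p was 0.275, against 0.0745 without the covariate. In CSS it was 0.94 ± 0.24 (adjusted p = 0.0438, against 0.0384 without the covariate). RIN was lower in T2D as a group, so this fit cannot fully separate RIN from treatment. The part of RIN in the change was not tested. Its neighbour Gm42418, of whose exon bases 99.5% overlap genes on the other strand, had 83.7 to 288 CPM in CSS libraries. In CSS_control 1 library was at 591 CPM and the other 7 were between 62.6 and 184.2 CPM, and the log2 fold change was 0.06 ± 0.51 (adjusted p = 0.959). In T2D it was at 0.58 ± 0.33 (adjusted p = 0.838), at 0.53 ± 0.37 without T2D 1, and at 0.24 ± 0.17 with RIN as a covariate. All members together took 1.21% to 1.74% of counts in CSS libraries and 1.18% to 1.296% in CSS_control libraries. Without Gm26917 these shares were 1.04% to 1.16% in CSS and 1% to 1.13% in CSS_control.

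**Figure D3:**
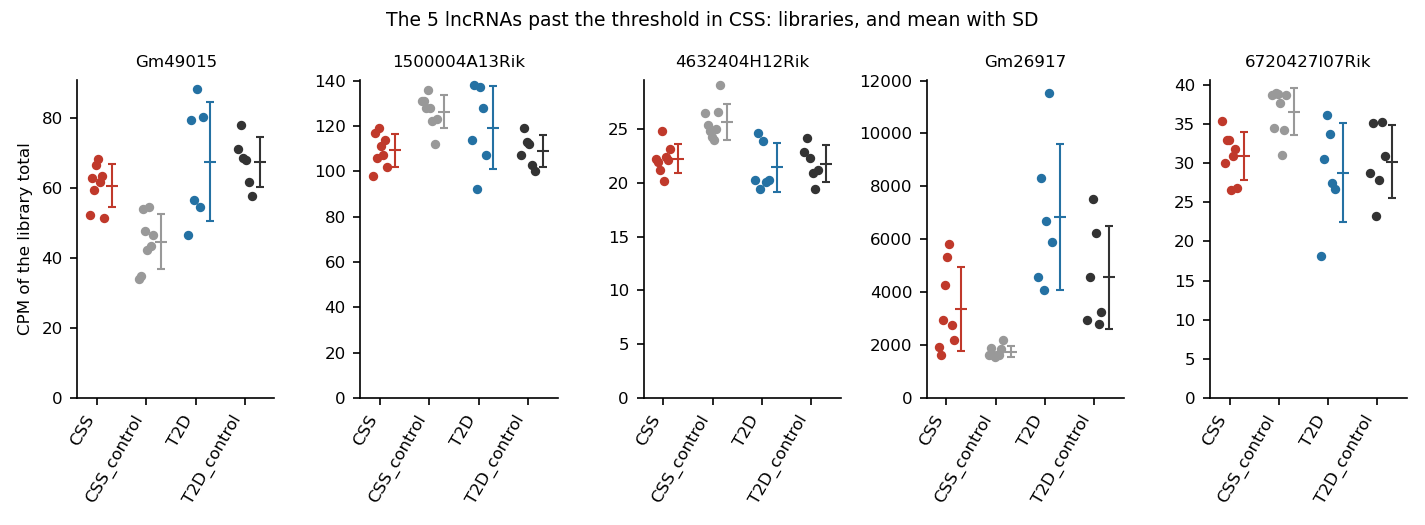
CPM of the 5 lncRNAs past the threshold in CSS, with every library as a point and the group mean with its SD beside the points; all axes start at 0. The 8 CSS libraries of Gm49015 were above the CSS_control mean and those of 1500004A13Rik, 4632404H12Rik and 6720427I07Rik below it, while 3 CSS libraries of Gm26917 lay at 4284 CPM or more.

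The next 5 members by p did not pass in CSS. They were Gm47163 (log2 fold change -0.24 ± 0.07, adjusted p = 0.0555), Gas5 (-0.21 ± 0.06, adjusted p = 0.0574), Snhg20 (-0.30 ± 0.09, adjusted p = 0.0628), Gm27032 (-0.30 ± 0.10, adjusted p = 0.0788) and Rmrp (0.99 ± 0.31, adjusted p = 0.0804). The Wald test of DESeq2 called all 5, with adjusted p-values of 0.0168, 0.0219, 0.0254, 0.0356 and 0.0282 in the same order, where it called 8.48% of all genes. Rmrp had 20.1, 29.7 and 92.9 CPM in CSS libraries, against 10.5, 19.7 and 30.9 CPM in CSS_control libraries. Its highest value stood far above the other CSS libraries, which reached 47.3 CPM. Of its exon bases 96.4% overlap another entry of the same symbol on the same strand, which the tables type as ribozyme, so reads of these entries may have been split between them. That entry averaged 212 ± 55.7 CPM in CSS and 159 ± 17.5 CPM in CSS_control (SD, n = 8 each; log2 fold change 0.41 ± 0.12, adjusted p = 0.0630).

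The largest negative value of any member in CSS was that of Gm47283, a transcript on chromosome Y that M21 types as protein-coding. It had 47.7, 69.4 and 124 CPM in CSS libraries, against 70.1, 114 and 280 CPM in CSS_control libraries. The groups overlapped, the highest control value stood alone, and the log2 fold change was -0.71 ± 0.29 (adjusted p = 0.171).

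**Figure D4:**
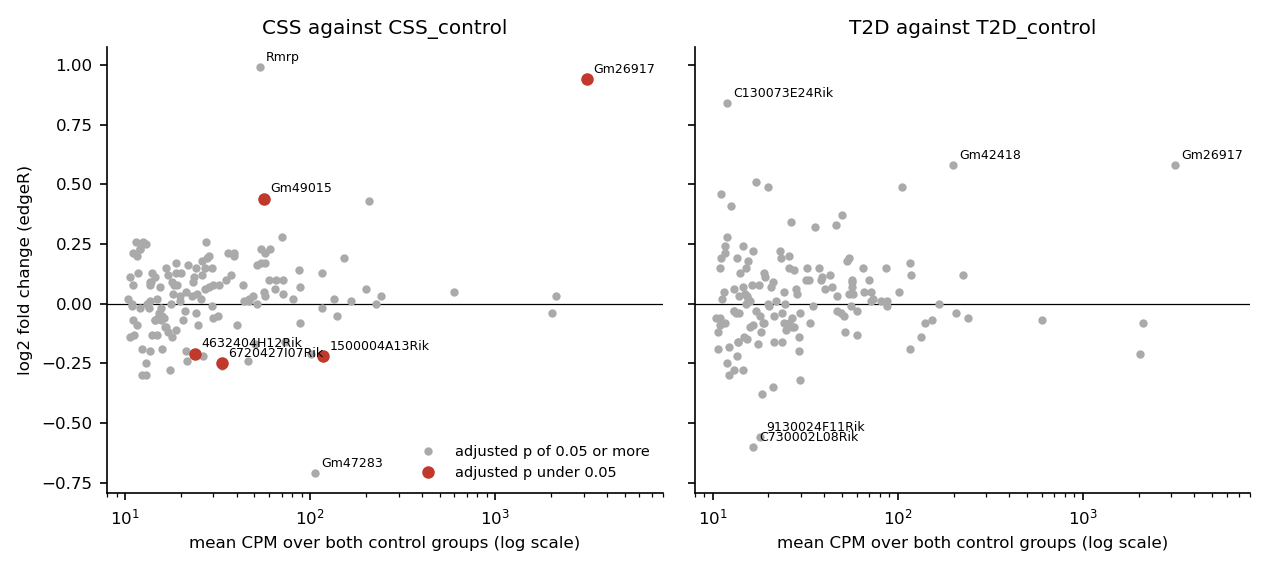
Log2 fold change of each of the 147 lncRNAs in CSS (left) and T2D (right) against its mean CPM over both control groups, on a log axis. Red points are members with an adjusted p under 0.05. There are 5 of them in CSS and none in T2D, and the median absolute log2 fold change is 0.10 in both panels.

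Of the 25 hosts of miRNA genes 1 passed in CSS (4%, near the 4.52% of all genes), the let-7 host 6720427I07Rik. A positive log2 fold change was found for 18 of them (72.0%, against 62.6% of members and 51.3% of all genes; median 0.04, range -0.30 to 0.43). In T2D 13 were positive (52.0%, against 53.7% of members and 50.8% of all genes), and 18 without T2D 1. For miR-9, Gm3764 averaged 68.6 ± 8.87 CPM in CSS and 58.5 ± 5.49 CPM in CSS_control (SD, n = 8 each), a difference of 0.23 ± 0.08 on the log2 scale (adjusted p = 0.0947). The other miR-9 hosts C130071C03Rik (0.02 ± 0.05) and Mir9-3hg (-0.07 ± 0.09) were near 0. For miR-124, Mir124-2hg was at -0.16 ± 0.06 on the log2 scale (adjusted p = 0.109) and Mir124a-1hg at 0.02 ± 0.09. The miR-29 host A330023F24Rik had 128, 159 and 178 CPM in CSS libraries, against 116, 140 and 148 CPM in CSS_control libraries. Its log2 fold change was 0.19 ± 0.08 (adjusted p = 0.168). Mir99ahg, which carries let-7c and miR-99a, was at 0.15 ± 0.11, Mir100hg, which carries let-7a and miR-100, at 0.14 ± 0.11 and Mir22hg at 0.03 ± 0.08. Of the 3 let-7 hosts 6720427I07Rik was thus negative and passed, Mir99ahg and Mir100hg were positive and did not, and the difference between hosts was not tested.

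Of the 7 snoRNA or scaRNA hosts none passed in CSS. Gas5, whose spliced RNA is short-lived and which carries C/D box snoRNAs in its introns, had 87.6, 99 and 113 CPM in CSS libraries, against 102.4, 113 and 132.5 CPM in CSS_control libraries. All 8 CSS libraries were below the control mean. Snhg20 had 8.04, 9.73 and 12.4 CPM in CSS libraries, against 10.4, 12.2 and 14.1 CPM in CSS_control libraries. Snhg1 was at -0.25 ± 0.11 (adjusted p = 0.204) and Snhg12 at -0.05 ± 0.07, and Snhg8, Snhg17 and Zfas1 were at 0.00 on the log2 scale. In a longer list of snoRNA hosts, members or not, 4 of 20 measured genes (Snhg4 with 2 entries) were positive in CSS, against 51.3% of all genes, and none passed, against 4.52% (median -0.09). In T2D 11 of 19 were positive (median 0.05), against 50.8% of all genes, and none passed.

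**Figure D5:**
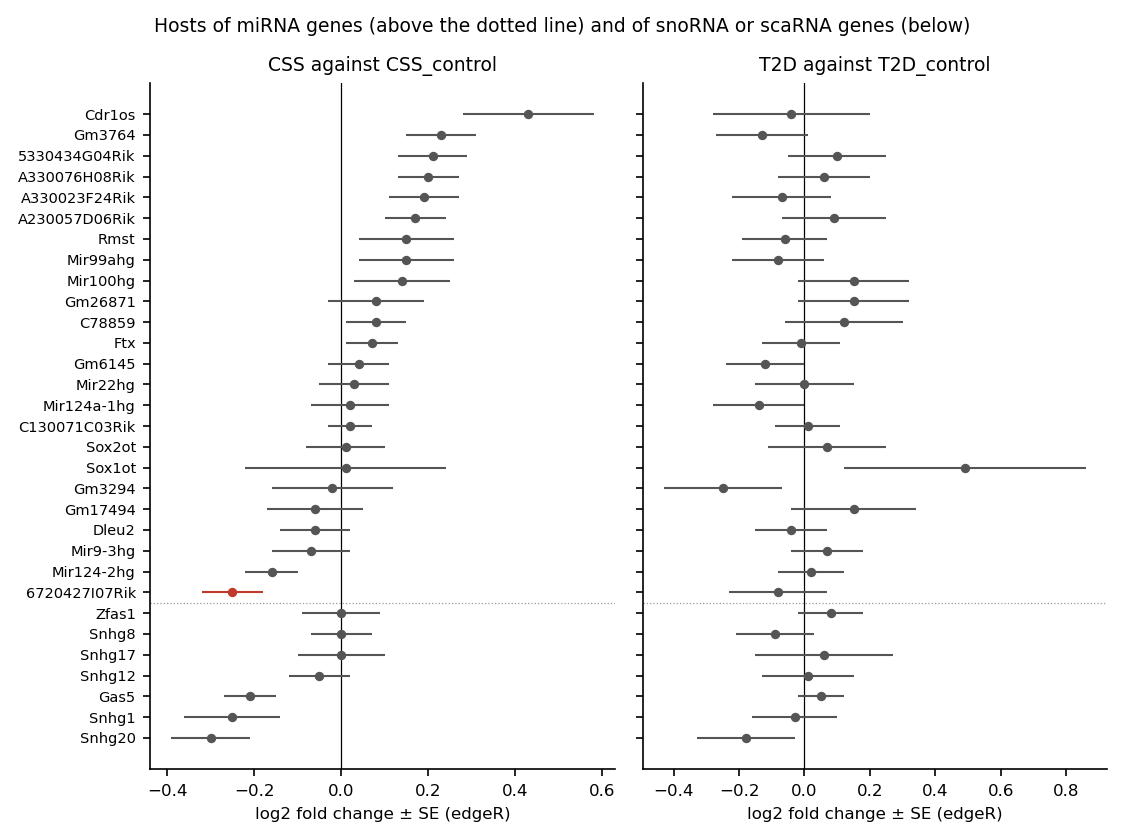
Log2 fold change with its SE (edgeR) of the hosts of miRNA genes, above the dotted line, and of snoRNA or scaRNA genes, below it, in CSS (left) and T2D (right). Snhg20 encloses both kinds and is drawn below the line. The only red point, past the threshold, is 6720427I07Rik in CSS at -0.25.

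None of 16 members with a named function or partner passed in CSS, where 4.52% of all genes did. Of the 16, 14 had a positive log2 fold change (87.5%, against 62.6% of members and 51.3% of all genes), with a median of 0.06. In T2D 5 of the 16 were positive (31.2%, against 53.7% of members and 50.8% of all genes), or 9 without T2D 1, so this count depended on 1 library. Cdr1os had 136, 205 and 285 CPM in CSS libraries, against 119, 164 and 191 CPM in CSS_control libraries. Its log2 fold change was 0.43 ± 0.15 (adjusted p = 0.118), and 7 of 8 CSS libraries were above the control mean. Lncpint, which is induced by p53, had 43.4, 57.2 and 74.7 CPM in CSS libraries, against 42.7, 48.9 and 52.3 CPM in CSS_control libraries (0.23 ± 0.09, adjusted p = 0.124). Both groups of values overlapped. The most abundant members of the list were close to 0. 2900097C17Rik averaged 2261 ± 146 CPM in CSS and 2201 ± 134.4 CPM in CSS_control (0.03 ± 0.05). Bc1 averaged 2255 ± 273 CPM in CSS and 2304 ± 498 CPM in CSS_control (-0.04 ± 0.12), and Oip5os1 averaged 641 ± 59.1 CPM in CSS and 618 ± 78.4 CPM in CSS_control (0.05 ± 0.08; SD, n = 8 each). Peg13 (0.03 ± 0.06), Firre (0.06 ± 0.08), which helps to organise the nucleus, Ftx (0.07 ± 0.06), a regulator of Xist, Sox2ot (0.01 ± 0.09), Rmst (0.15 ± 0.11), Pvt1 (0.09 ± 0.09) and 1810026B05Rik (0.10 ± 0.06), which lies upstream of Chd2, were also within 0.15 of 0. Dlx6os1, a transcript of forebrain interneurons and their precursors, was at -0.17 ± 0.16.

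In T2D no member passed, and none of 15054 genes did (0%). An unadjusted p under 0.05 was found for 6 members (4.08%) and 879 genes (5.84%), and DESeq2 called 4 genes (0.0266%), none of them a member. Values were positive for 79 members and negative for 68, with a median of 0.01. Without T2D 1 the values were 91 positive and 56 negative with a median of 0.07, and 28 members (19.05%) had an unadjusted p under 0.05, against 12.1% of all genes. Still no gene passed then, and the smallest adjusted p of a member was 0.211. The number of members with a low unadjusted p thus depended on 1 library.

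The 5 members of smallest p in T2D all had an adjusted p of 0.825. 9230112E08Rik had 12.5, 15.8 and 17.6 CPM in T2D libraries, against 16.6, 21.1 and 22.6 CPM in T2D_control libraries. All 6 T2D libraries were below the control mean, and the log2 fold change was -0.38 ± 0.11 (-0.37 without T2D 1). C730002L08Rik had 6.30, 12.2 and 15.2 CPM in T2D libraries and 12.7, 16.98 and 23.5 CPM in T2D_control libraries (-0.60 ± 0.21, or -0.71 ± 0.21 without T2D 1). The gene listed as Trerf1, typed lncRNA in the tables under a symbol of a transcription factor gene, had 39.4, 45.3 and 51.2 CPM in T2D libraries and 28.9, 33.2 and 49.4 CPM in T2D_control libraries (0.32 ± 0.12). Pantr1, which starts 926 bases from the neuronal transcription factor gene Pou3f3, had 19.5, 23.7 and 34.6 CPM in T2D libraries and 27.2, 29.9 and 36.3 CPM in T2D_control libraries (-0.32 ± 0.13). Without T2D 1 its log2 fold change was -0.45 ± 0.10 (adjusted p = 0.211). Gm15631 was at -0.30 ± 0.13, and at -0.40 ± 0.12 without it. All 5 had T2D and T2D_control values that overlapped.

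Of the other abundant members, 2900097C17Rik and Oip5os1 were within 0.10 of 0 in T2D. 2900097C17Rik averaged 1949 ± 144 CPM in T2D and 2034 ± 161 CPM in T2D_control (-0.08 ± 0.07), and Oip5os1 560 ± 48.7 CPM in T2D and 582 ± 73.2 CPM in T2D_control (-0.07 ± 0.09; SD, n = 6 each). Bc1 averaged 1537 ± 237 CPM in T2D and 1758 ± 231 CPM in T2D_control, with a log2 fold change of -0.21 ± 0.11 (adjusted p = 0.825). Cdr1os had 180, 248 and 336 CPM in T2D libraries, against 153, 236 and 379 CPM in T2D_control libraries (-0.04 ± 0.24, or -0.15 ± 0.26 without T2D 1). The widest relative spread within T2D was that of C130073E24Rik, at 4.34 to 34.9 CPM, followed by Sox1ot at 7.72 to 41.0 CPM and Gm47283 at 59.7 to 224.2 CPM. Among the snoRNA hosts Gas5 was at 0.05 ± 0.07 and Snhg20 at -0.18 ± 0.15 (-0.12 ± 0.15 without T2D 1).

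The difference between the treatments, CSS minus T2D change, was tested over all 28 libraries. No member passed, against 12 of 14888 genes (0.0806%; 0.0470% higher and 0.0336% lower), nor by DESeq2, which called 0.752% of all genes, and 17 members had an unadjusted p under 0.05 (11.6%, against 12.4% of all genes). The smallest adjusted p was that of 1500004A13Rik (0.147). Its change in CSS (-0.22) minus that in T2D (0.12) was -0.34 ± 0.10. Next were 9230112E08Rik (0.45 ± 0.15, adjusted p = 0.225), 2900052N01Rik (-0.57 ± 0.20, adjusted p = 0.252, or -0.62 ± 0.21 without T2D 1), Rab10os (-0.37 ± 0.13, adjusted p = 0.255) and Gas5 (-0.27 ± 0.10, adjusted p = 0.255). Gm49015, called in CSS, had a change of -0.01 ± 0.14 in T2D (0.07 ± 0.12 without T2D 1) and a difference of 0.45 ± 0.16 (adjusted p = 0.257). Without T2D 1 no gene and no member passed, 19 members had an unadjusted p under 0.05 (12.9%, against 14.8% of all genes), and the smallest adjusted p of a member was that of Pantr1 (0.53 ± 0.12, adjusted p = 0.0552; 0.39 ± 0.14, adjusted p = 0.263 with all libraries). The difference of Gm49015 was then 0.37 ± 0.16. An effect confined to either treatment was therefore not shown for any member. The log2 fold changes of the 147 members in the 2 cohorts had a Pearson correlation of 0.186 across genes, which are not independent replicates, and 51.7% of members had the same sign, against 52.1% of all genes. Without T2D 1 the correlation was 0.197 and the shares were 57.1% of members and 53.8% of all genes, so that which share was higher depended on this library.

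Of the members, 39 had a protein-coding gene that starts within 5 kb on the opposite strand, in 40 pairs of which both genes were tested in 39. In CSS 24 pairs had changes of the same sign (Pearson correlation 0.0134 across pairs), and in T2D 22 pairs did (0.380), or 26 without T2D 1 (0.404). The CSS pairs included Rmrp (0.99), the largest positive change of any member, beside Ccdc107 (-0.16). A correlation without this pair was not computed, so the correlations of the 2 cohorts are not compared. Of the 39 coding partners tested, 2 passed in CSS, beside 4.52% of all genes. They were Arid2, a subunit of a chromatin remodelling complex (0.26 ± 0.07, adjusted p = 0.0396), beside 2610037D02Rik (-0.09), and Cntn4, a neuronal adhesion molecule (0.23 ± 0.06, adjusted p = 0.0329), beside Gm15631 (-0.19). None passed in T2D. Partners of other named members did not pass in CSS, including Zbtb37 beside Gas5 (-0.02 ± 0.06), Shc2 beside Gm47163 (-0.11 ± 0.06), Pou3f3 beside Pantr1 (0.01 ± 0.06) and Morc2a beside Tug1 (0.05 ± 0.06).

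For 17 members at least 50% of the span lay inside a coding gene on the same strand. There, reads of the unspliced coding transcript cannot be told apart from those of the member. Of the 17, A730017L22Rik and 2810013P06Rik also had a coding gene that starts within 5 kb on the opposite strand. In each cohort 14 of these 17 had a positive log2 fold change (82.4%), and none passed. In CSS 62.6% of members and 51.3% of all genes were positive. In T2D 53.7% of members (91 of 147 without T2D 1) and 50.8% of all genes were. The median of the 17 was 0.08 in CSS and 0.07 in T2D (0.14 without T2D 1). Some of the 17 share a coding gene, as Gm10115 and Gm10855 do in Celf2. Frmd4a, a scaffold protein of cell junctions, held 3 of the 17. Gm38085 was at 0.23 in CSS and 0.28 in T2D, Gm37814 at 0.21 in CSS and 0.46 in T2D, and Gm10862 at 0.13 in CSS and 0.24 in T2D, beside 0.24 ± 0.09 in CSS and 0.20 ± 0.12 in T2D for Frmd4a. Without T2D 1 the T2D values were 0.42 for Gm38085, 0.60 for Gm37814, 0.38 for Gm10862 and 0.28 ± 0.10 for Frmd4a, with adjusted p-values between 0.248 and 0.330. B930095G15Rik (0.10 in CSS, adjusted p = 0.339) lies in Farp1, which was higher in CSS (0.32 ± 0.08, adjusted p = 0.0279). Ptbp2 and Mcm9 did not rise in CSS with the members inside them. Gm42664 was at 0.26 beside -0.04 ± 0.06 for Ptbp2, and Gm47739 at 0.26 beside -0.30 ± 0.21 for Mcm9. The part of coding transcripts in the values of these members was not tested.

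Genes of the machinery that makes and degrades such RNAs were described from lists. Of 10 core proteins of snoRNA particles none passed in CSS (median -0.08), and of 11 genes of miRNA processing and Argonaute none did (median 0.09). Of 15 factors of nonsense-mediated decay, which degrades many spliced snoRNA host transcripts, 1 rose and 3 fell in CSS (median -0.03), where 2.11% of all genes rose and 2.42% fell. Smg1, the kinase of the pathway, averaged 298 ± 33.5 CPM in CSS and 242 ± 17.2 CPM in CSS_control (0.30 ± 0.07, adjusted p = 0.0196). Upf3b averaged 23.0 ± 2.04 CPM in CSS and 28.8 ± 3.75 CPM in CSS_control (-0.33 ± 0.08, adjusted p = 0.0264), Upf3a fell by 0.25 on the log2 scale (adjusted p = 0.0331), and so did Rbm8a, of the exon junction complex, by 0.28 (adjusted p = 0.0378). Of 15 genes of the nuclear RNA exosome and its adaptors 1 fell (2.42% of all genes did), the poly(A)-binding protein gene Pabpn1 (-0.24 ± 0.06, adjusted p = 0.0325). None of these lists had a gene past the threshold in T2D. Among the 9 genes left out by name, 1 passed in CSS. Snhg14 rose (0.33 ± 0.07, adjusted p = 0.0169), with 2943 ± 309 CPM in CSS and 2332 ± 284 CPM in CSS_control (SD, n = 8 each).

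Some markers of cell types passed the test in CSS and none did in T2D. In CSS, 2.11% of all genes rose and 2.42% fell. Of 10 microglial markers 5 fell in CSS (median -0.38), and their summed level was 187 to 374 CPM in CSS libraries and 358 to 413 CPM in CSS_control libraries. Of 8 astrocyte markers 2 rose (sum 3570 to 4514 CPM in CSS, 3219 to 3822 CPM in CSS_control), as did 2 of 6 oligodendrocyte precursor, 2 of 7 endothelial, 1 of 7 meningeal fibroblast and 1 of 8 excitatory neuron markers. Of 8 inhibitory neuron markers 2 fell, and none of 8 oligodendrocyte or 9 striatal markers passed. Markers of striatal projection neurons, cells of a neighbouring region, were present in all groups, at 987 to 1582 CPM in CSS, 1097 to 2218 CPM in CSS_control, 336 to 2136 CPM in T2D and 419 to 1868 CPM in T2D_control in sum. In T2D all 10 microglial markers were negative (median -0.43), with a sum of 181.9 to 353.5 CPM in T2D libraries and 216.2 to 349.6 CPM in T2D_control libraries. All 9 striatal markers were positive in T2D (median 0.53) and negative in CSS (median -0.27). Of 7 meningeal fibroblast markers 6 were positive in T2D (median 0.53, or 0.67 without T2D 1) and all in CSS (median 0.51), and 7 of 8 excitatory neuron markers were negative in T2D (median -0.13, or -0.23 without T2D 1). In whole tissue fewer cells of a type and less RNA per cell cannot be told apart, and the part of these differences in the lncRNA results was not tested.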

How the data were processed

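RNA-seq was done on the frontal cortex of 28 mice, with stranded total RNA libraries (TruSeq) depleted of ribosomal RNA, per the labels' protocols. The authors deposited estimated counts per gene, 1 table per cohort, and Salmon 1.1.0 and mm10 are named in the submitters' processing notes. The summing of transcripts, the use of strand and the removal of low genes were not given in the sources used here. Gene types are those of the tables. The estimated counts were rounded and tested per cohort with edgeR 4.0.16 (TMM, default low-count filter, robust quasi-likelihood), under R 4.3.3 with limma 3.58.1. P-values were adjusted by Benjamini and Hochberg across every gene of the table (threshold 0.05). The difference between the treatments (CSS minus T2D change) was tested as a contrast over all 28 libraries. DESeq2 1.42.0 was an alternative. CPM refers to the deposited column total. Positions, transcripts and neighbours came from GENCODE M21, and matched on gene identifier for all 147 members; figures used matplotlib 3.10.9. The scripts were tested on simulated data. Libraries are from separate mice.

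Groups came from the treatment labels and titles. The members and lists were chosen with earlier results of these data known. Named are members past the threshold, the 5 of smallest p per comparison, the 10 of highest level, the 3 nearest the threshold on each side, members in the lists, coding neighbours within 5 kb and pathway genes past the threshold; Gm47283, the 3 members of widest spread in T2D, further miRNA hosts and members inside coding genes were named after their values were seen. Alternatives were other scaling, filters, DESeq2, RIN as a covariate, a replicate block, each library left out and other member thresholds.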

Additional observations from a re-analysis of the deposited data

Results flagged for a closer look

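Within a group, the highest or lowest library stood far from the others, by Dixon's criterion at its 95% level, in 8 of 108 groups of values examined over 27 named members. For independent values of a normal distribution about 1 in 20 would be flagged. The members share libraries, and Gm47283 was named after its values were seen, so the count is not set against this rate. Rmrp was at 92.9 CPM in CSS 6, where the next CSS library was at 47.3 CPM. 9230112E08Rik was at 25.5 CPM in CSS 2, against 18.4 CPM in the next. Trerf1 was at 59.1 CPM in CSS 5, against 43.9 CPM in the next, and B230334C09Rik at 272 CPM in the same library, against 250 CPM in the next. Gm42418 was at 591 CPM in CSS_control 5, against 184.2 CPM in the next, and Gm47283 at 280 CPM in CSS_control 1, against 164 CPM in the next. Bc1 was at 2201 CPM in T2D_control 2, against 1765 CPM in the next. A330023F24Rik was at 88.9 CPM in T2D 1, below 160 CPM in the next lowest T2D library. No member passed the test of the difference between the treatments (CSS minus T2D change), which does not compare levels between the cohorts.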

How the results depend on the processing

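The 5 members called in CSS became 11 by DESeq2's Wald test (4 higher, 7 lower, including all 5), which called 8.48% of all genes. A member threshold of 5 CPM gave 9 (of 282 members), in the fit that called 4.52% of all genes. Leaving out genes with a mean under 5 CPM gave 8, and a replicate block gave 3, of which 2 were among the 5. The share of all genes under the 5 CPM filter is not given here, so its 8 members are not set against a background. Leaving out each library in turn gave 2 to 6. There were 2 without CSS 5, CSS 6, CSS_control 1 or CSS_control 2, and 3 without CSS 3, CSS_control 3 or CSS_control 5. Over all genes the count in CSS was 683 of 15097 (4.52%), against 1280 of 15097 (8.48%) by DESeq2, 478 with the block and 222 to 794 with 1 library left out. Other scaling, no filter, RIN as a covariate, a threshold of 20 CPM, members chosen over all libraries, members without shared exons, and leaving out Gm26917, Gm42418, Rmrp and Gm47283 (chosen after seeing the data) gave 4 to 6. For other scaling, no filter and RIN as a covariate the shares of all genes are not given here. Those counts are therefore not set against a background. No member was called in T2D or in the difference between the treatments under any alternative run. The median change moved between 0.02 and 0.05 in CSS and between -0.01 and 0.07 in T2D with 1 library left out. Of the 10 members of smallest p in CSS and the 5 in each other comparison, none changed sign in any fit. The replicate numbers did not pair the samples. Correlations of same-numbered deviations were -0.163 to 0.334 in CSS (2 of 8 best with their own number) and -0.0144 to 0.135 in T2D (0 of 6). With the block Rmrp passed in CSS (adjusted p = 0.0191) and Gm26917 did not (0.154). The cause of these shifts was not tested. The smallest library held 12.1 M counts, so members near 10 CPM carry the most counting error.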

Other observations

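Gm50331, just under the threshold of 10 CPM, passed edgeR's quasi-likelihood test in CSS (log2 fold change 0.44 ± 0.10, adjusted p = 0.0233) and was at -0.03 ± 0.17 in T2D (0.08 ± 0.14 without T2D 1). Of all 1017 lncRNAs tested in CSS, 21 passed (2.06%), 12 higher and 9 lower, against 4.59% of protein-coding genes. In the diabetes cohort T2D 2 was the highest of the 12 libraries for 37 members and the lowest for none, and in the stress cohort CSS 5 was the highest of the 16 for 37 members and the lowest for 14. Of 8 members on the X chromosome 7 had a positive log2 fold change in CSS and 2 in T2D (5 without T2D 1), with none past the threshold. Over all members 62.6% were positive in CSS and 53.7% in T2D.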
